A study of Homo sapiens with 22 samples.

Results

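PHOX2A, HAND2, GATA2, GATA3, ISL1, TBX2, LMO1 and TFAP2B encode transcription factors or cofactors of the adrenergic state of neuroblastoma, and these 8 genes were taken by name from 20136 protein-coding genes with an annotated transcription start site (TSS). For each gene, every N-MYC and WDR5 peak with its summit within 1 kb of any of its TSSs was counted as a promoter peak, and peaks within 50 kb of the gene body with summits farther than 1 kb from all of its TSSs were kept apart as distal. Across the 16 peak lists, which hold 94408 peaks in all, 41 peaks were promoter peaks and 91 were distal peaks of these genes. The lists record where a protein was bound and do not measure expression, so the adrenergic label itself could not be checked here.

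ChIP-seq, in which DNA bound by a protein is recovered with an antibody and sequenced, was performed with antibodies to N-MYC or WDR5. The cells were CHP-134 and IMR-32, both established human neuroblastoma cell lines with amplified MYCN. CHP-134 cells received DMSO or a compound for 4 h, with 3 libraries for each antibody and treatment. IMR-32 cells were untreated, with 2 libraries for each antibody (replicates 1 and 2 for N-MYC, 1 and 3 for WDR5). The labels name the compound in several ways (C38b, 419C91 and C91), give no dose, and state the DMSO share as 0.0005% in one field and 0.005% in another. Each library pooled ChIPs made from identical samples. The methods describe the ChIP-seq experiments as independently repeated, while the labels do not say which libraries share a culture, and the tests below measure the spread between libraries. Each group is 1 cell line. CHP-134 and IMR-32 were also sequenced on different instruments, with single reads and paired-end reads, and only the CHP-134 cells received DMSO. Line, DMSO and sequencing run therefore cannot be told apart. IgG libraries were not analysed here. N-MYC lists held 9125 to 15286 peaks in DMSO, 2964 to 12313 with compound and 5242 to 8286 in IMR-32. WDR5 lists held 1671 to 4891, 15 to 5973 and 1258 to 1693 peaks, respectively. Compound replicate 2 had the fewest peaks of its group for both antibodies. Read depth is unknown from peak lists.

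Adrenergic neuroblastoma cells resemble sympathetic neuroblasts and are held in that state by a set of transcription factors that bind one another's genes as well as their own. HAND2 is a basic helix-loop-helix factor, GATA2 and GATA3 are zinc finger factors, PHOX2A and ISL1 are homeobox factors, TBX2 is a T-box repressor, TFAP2B is an AP-2 factor, and LMO1 is a LIM-only cofactor that bridges DNA-binding proteins without binding DNA itself. N-MYC, the product of MYCN, binds DNA with its partner MAX at E-boxes, most strongly at CACGTG. WDR5 is a scaffold protein of histone methyltransferase complexes that also contacts MYC proteins.

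The sequences under the summits of the N-MYC regions on which the results turn are shown first, as hg19 plus-strand sequence, with each match to the E-box CACGTG or the related CACGCG and CATGTG in capitals on whichever strand it was found. The first 3 are the distal sites near TBX2 and GATA2.
TBX2 upstream site, chr17:59439879-59439979: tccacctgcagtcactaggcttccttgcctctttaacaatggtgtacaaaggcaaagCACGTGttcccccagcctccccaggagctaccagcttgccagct
GATA2 downstream site, chr3:128189323-128189423: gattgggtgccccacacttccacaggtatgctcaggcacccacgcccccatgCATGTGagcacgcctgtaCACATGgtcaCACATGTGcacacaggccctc
GATA2 upstream site, chr3:128216522-128216622: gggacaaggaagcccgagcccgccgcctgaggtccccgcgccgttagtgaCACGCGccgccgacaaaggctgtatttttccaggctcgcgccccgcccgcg

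The TBX2 upstream site had 1 CACGTG, which began 7 bp from the summit. The GATA2 downstream site had 4 overlapping or neighbouring matches to CATGTG, at 2, 20, 30 and 32 bp from the summit, the last pair sharing bases. At the GATA2 upstream site CACGCG began at the summit itself.

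The promoter windows below come from the GATA2, GATA3 and LMO1 genes, and the GATA3 window at its main peak ends 1 base before the nearest TSS. The LMO1 window is centred on the summit of compound replicate 1 (8284709).
GATA2 intron, chr3:128206053-128206153: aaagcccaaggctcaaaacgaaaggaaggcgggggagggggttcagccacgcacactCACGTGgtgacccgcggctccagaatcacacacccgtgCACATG
GATA3 main promoter peak, chr10:8095466-8095566: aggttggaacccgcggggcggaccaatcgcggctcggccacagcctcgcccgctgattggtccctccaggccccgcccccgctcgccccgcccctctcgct
GATA3 first TSS, chr10:8087492-8087592: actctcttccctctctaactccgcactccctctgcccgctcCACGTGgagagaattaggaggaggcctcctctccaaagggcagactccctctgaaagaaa
LMO1 intron, chr11:8284659-8284759: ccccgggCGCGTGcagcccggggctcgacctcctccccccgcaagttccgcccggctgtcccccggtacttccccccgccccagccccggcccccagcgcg

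The window of the strongest promoter peak, at GATA3, contained none of the 3 motifs, although a CACGCG lay 26 bp downstream of its summit, beyond the printed bases. The GATA2 and GATA3 E-boxes began 7 bp after and 9 bp before their summits.

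Promoter binding by N-MYC was uneven among the 8 genes, as the plot of promoter percentiles shows. MACS2 fold enrichment depends on the depth and background of a library, so each peak's fold was ranked within its own list and given as a percentile, where 100 is the strongest peak. In DMSO-treated CHP-134 cells, 4 of 8 genes (HAND2, GATA2, GATA3 and LMO1) had an N-MYC promoter peak in at least 2 libraries, against 38.7% of all protein-coding genes. Among genes with such a peak, the median of the mean percentiles was 27 for these 4 genes and 55.6 for all genes. GATA3 was the exception, with a mean percentile of 77.9 ± 13.2 (SD, n = 3).

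**Figure D1:**
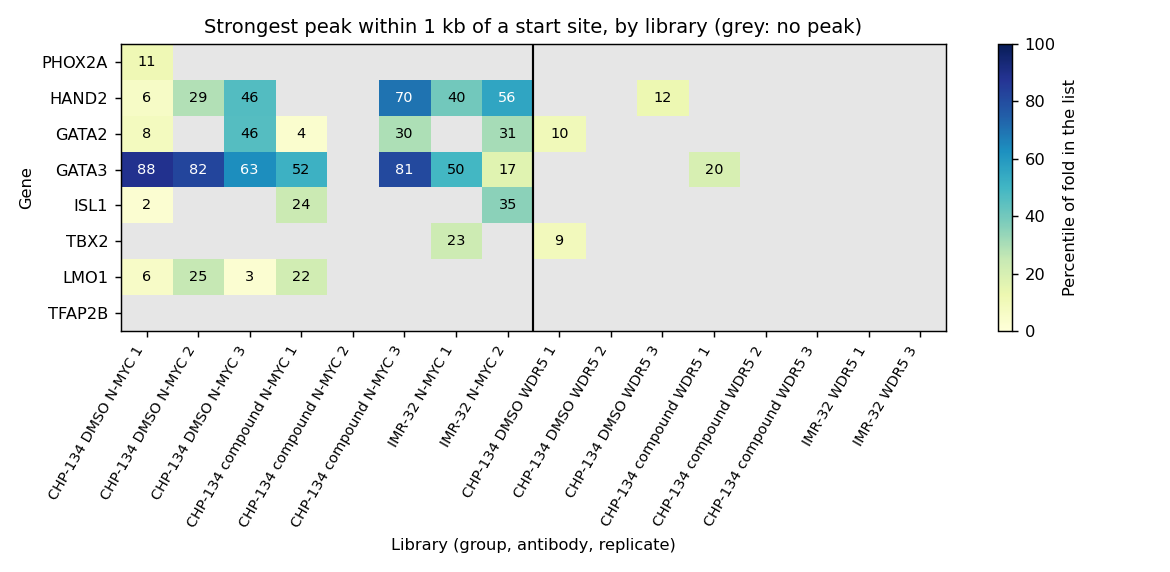
Percentile of fold within its list (colour scale and numbers, 100 = strongest) for the strongest peak within 1 kb of a TSS of each gene (rows) in each of the 16 libraries (columns), with N-MYC left and WDR5 right of the line and grey where no peak was listed. GATA3 reached 63.1 to 88.4 in the 3 DMSO N-MYC libraries, while the WDR5 side held 4 values, none above 19.6.

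GATA3 lies on chromosome 10 (8087341 to 8117161, plus strand). Its strongest DMSO peak (8095161 to 8095968) had its summit 11 bp from an internal TSS, and its percentiles were 88.4, 82.2 and 63.1 in replicates 1 to 3. The folds behind them were 8.61, 7.38 and 5.86, with −log10 q values of 37.8, 21.0 and 20.6. All 3 DMSO libraries thus placed this peak in the upper part of their lists. A region at the first GATA3 TSS (8087035 to 8087830), which holds the E-box shown above, was weaker, at 46.3 in replicate 1 and 8.0 in replicate 2. A further promoter region (8096001 to 8096700), 226 bp upstream of the canonical TSS, reached 59.8 in replicate 1 and 36.7 in replicate 3.

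HAND2, a factor required for sympathetic neuron development, is on chromosome 4 (174446120 to 174451380, minus strand). Its promoter region (174449776 to 174450488) lay in a coding exon, 170 bp from an alternative TSS and 1147 bp downstream of the canonical one. N-MYC percentiles there were 6.2, 28.7 and 46.1 in DMSO replicates 1 to 3. All DMSO values were below the middle of their lists.

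LMO1 (chromosome 11, 8245856 to 8290263, minus strand) was also listed in all 3 DMSO libraries, at percentiles of 5.7, 25.1 and 2.6. Its region (8284100 to 8285040) was in an intron, 226 bp from the nearest TSS. The peaks of replicates 1 and 3 were near the bottom of their lists, and that of replicate 2 was higher.

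GATA2 (chromosome 3, 128198270 to 128212044, minus strand) had an intronic promoter region (128205560 to 128206267) at percentile 8.2 in DMSO replicate 1 and 45.9 in replicate 3. Replicate 2 listed no promoter peak for GATA2. The region's summit was 656 bp from an alternative TSS and 5941 bp downstream of the canonical one. This gene sits at the edge of the distance limit, since the replicate 1 summit was 925 bp and that of compound replicate 3 was 965 bp from a TSS.

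The other genes had a promoter peak in 1 library of a group or none. PHOX2A, which acts in noradrenergic neuron specification, was listed in DMSO replicate 1 only, at 11.0. Just outside the limit, at 1067 bp and 1184 bp from a TSS, PHOX2A had peaks at 22.0 in DMSO replicate 2 and 17.8 in compound replicate 3, and GATA3 had one at 1066 bp and 18.0 in compound replicate 3. ISL1, at 2.5, was also listed only in DMSO replicate 1 among the DMSO libraries. TBX2 had no N-MYC promoter peak in CHP-134 cells. TFAP2B had no promoter or distal peak for either protein in any of the 16 lists, and its nearest N-MYC peak lay 119 kb below its gene body in hg19 coordinates.

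Genes near to this set in function or sequence were not alike in N-MYC listing in DMSO-treated CHP-134 cells. All 12 other transcription factors of the adrenergic state had an N-MYC promoter peak in at least 2 DMSO libraries, with a median percentile of 51 and the highest means at INSM1 (93.5 ± 2.87, SD, n = 3), SATB1 (71.8 ± 9.46, n = 2) and SOX11 (60.5 ± 31.2, n = 3). Of 16 paralogs of the 8 genes, 4 were listed, led by TBX3 at 73.3 ± 20.7 (n = 3), LMO3 at 61.7 ± 4.72 (n = 2) and TFAP2A at 54.3 ± 28.4 (n = 2). Of 20 transcription factors of the mesenchymal state, the other main cell state of neuroblastoma, 10 were listed, including FOSL2 at 88.9 ± 7.35 (n = 3) and SNAI2 at 67.1 ± 28.5 (n = 3). These counts are descriptions, as the lists were chosen with results of these data known.

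**Figure D2:**
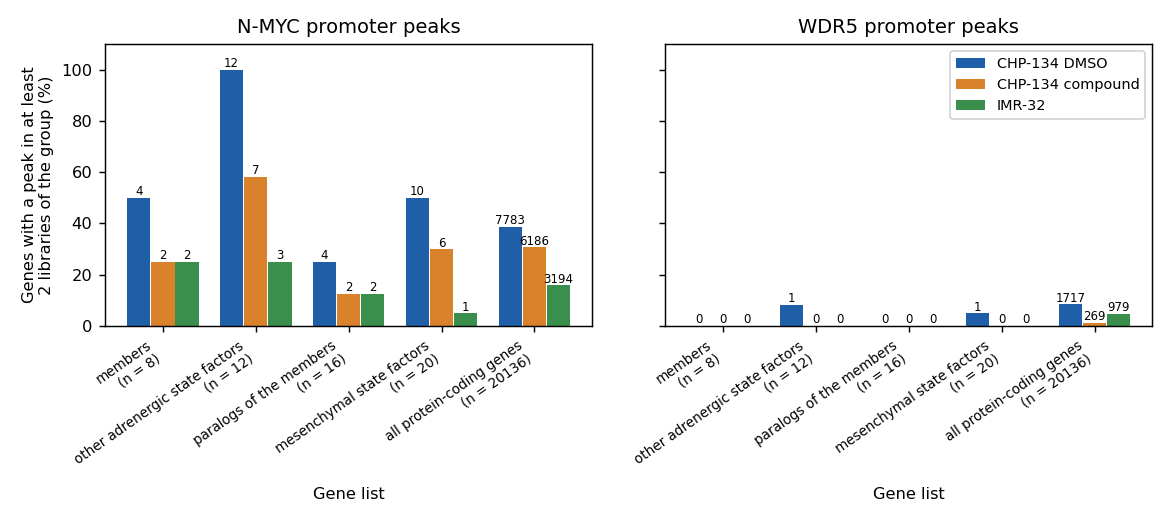
Percent of genes in each list (bars, with the number of genes above) that had a promoter peak in at least 2 libraries of a group, for N-MYC (left) and WDR5 (right) in the 3 groups. The members stood at 4, 2 and 2 of 8 genes for N-MYC and at 0 in each group for WDR5.

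WDR5 was listed at few of these promoters, as at few promoters of all genes. None of the 8 genes had a WDR5 promoter peak in at least 2 libraries of any group, where the share of all protein-coding genes was 8.53% in DMSO, 1.34% with compound and 4.86% in IMR-32. In at least 1 DMSO library 3 of the 8 genes were listed, against 22.2% of all genes. Single libraries listed HAND2 (12.4, DMSO replicate 3), GATA2 (10.0, DMSO replicate 1), TBX2 (9.2, DMSO replicate 1) and GATA3 (19.6, compound replicate 1). Each of these 4 values was near the bottom of its list. The HAND2 peak was 10 bp from a TSS of HAND2-AS1 and 280 bp from one of HAND2. No promoter of the 8 genes had overlapping N-MYC and WDR5 regions, each present in at least 2 libraries, in either cell line, against 7.30% of all genes in DMSO-treated CHP-134 cells and 2.34% in IMR-32, so a count of 0 among 8 genes is close to the background. WDR5 at these promoters could therefore be tested in no comparison. Among the other adrenergic factors, PBX3 had a WDR5 promoter peak in 2 DMSO libraries (90.8 ± 1.12, SD), a gene outside the rule for named genes and picked after its value was seen.

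Distal N-MYC regions in at least 2 DMSO libraries were found near 4 of the 8 genes, against 52.4% of all protein-coding genes, a share close to the background. In all, 8 distal regions were counted, 3 near GATA2, 2 each near HAND2 and TBX2, and 1 near GATA3. Of these, 7 were farther than 1 kb from every annotated TSS of coding and long non-coding genes, the only gene types checked. Up to 3 per gene, those with the highest mean percentile in DMSO, are described here. As neighbouring genes also lie in these windows, assignment to a gene is by distance alone.

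**Figure D3:**
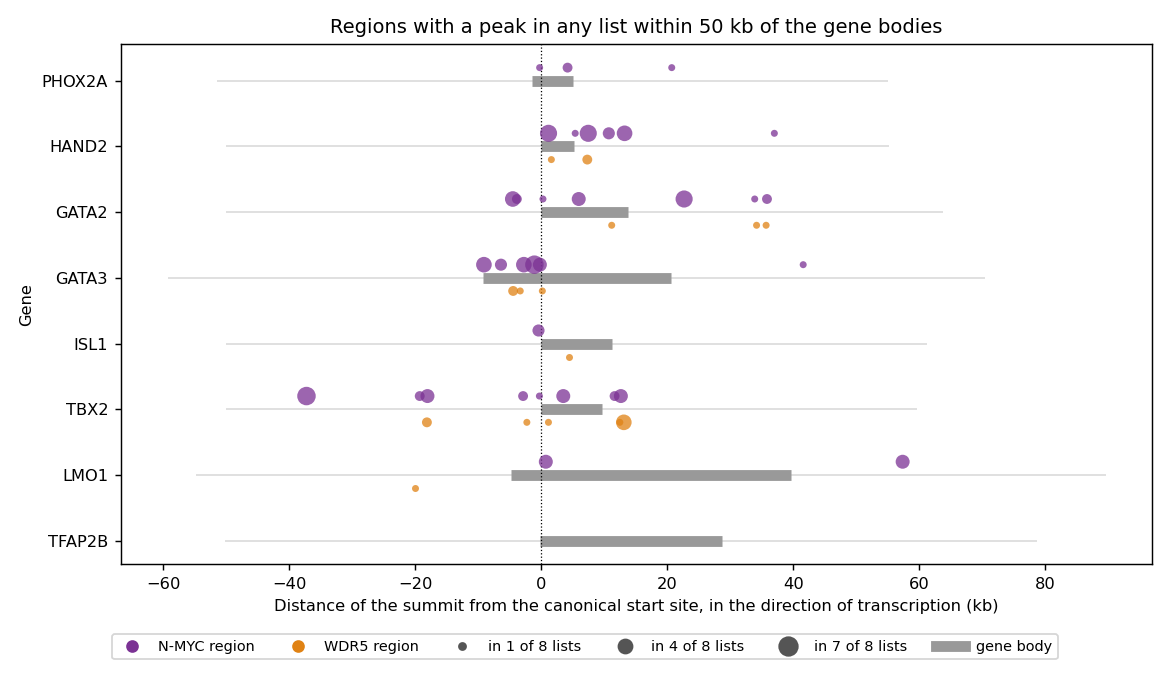
Distance of each region's summit from the canonical TSS in kb (horizontal axis, in the direction of transcription) for N-MYC (purple) and WDR5 (orange) regions near each gene (rows), with point area proportional to the number of lists of 8 and grey bars marking gene bodies. The TBX2 site 37275 bp upstream was in 7 of 8 N-MYC lists, GATA2 had one 22671 bp downstream in 6, and TFAP2B had none.

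The N-MYC region near TBX2 that was listed most often lay at chr17:59439671-59440203, in an intron of the neighbouring gene BCAS3 and 37275 bp upstream of the TBX2 TSS. Its percentiles were 58.0, 69.7 and 81.7 in DMSO replicates 1 to 3, and 14.7, 55.3 and 78.7 in the compound replicates. IMR-32 replicate 2 listed it at 48.3 and replicate 1 did not. The region was therefore in 7 of 8 N-MYC lists, although the TBX2 promoter had no N-MYC peak in CHP-134 cells. A second BCAS3 intron region, chr17:59458529-59459398, was weak, at 26.7 and 9.8 in DMSO replicates 1 and 2, 13.8 in compound replicate 1 and 11.3 in IMR-32 replicate 1.

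GATA2 had the distal N-MYC region with the highest mean percentile in DMSO, at chr3:128189063-128189717 in an intron of DNAJB8-AS1, 8897 bp past the end of the gene body. It was in all 6 CHP-134 N-MYC lists and in no IMR-32 list. Percentiles were 46.0, 82.2 and 87.8 in DMSO and 48.2, 54.6 and 81.1 with compound, in replicates 1 to 3, so the groups overlapped over most of their range. Upstream of GATA2, the GATA2-AS1 intron region chr3:128216269-128216851 stood at 18.1, 62.2 and 20.3 in DMSO, and at 19.5 and 12.9 in compound replicates 1 and 3. The nearby region chr3:128215713-128216059, in a GATA2-AS1 exon, was at 24.8 and 0.8 in DMSO replicates 1 and 3 and in no other list.

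Both HAND2 distal regions were downstream of the gene. The wider one, chr4:174442873-174444514, spanned 1642 bp of intergenic sequence and its percentiles were 48.2, 17.4 and 64.2 in DMSO, 62.5 and 68.0 in compound replicates 1 and 3, and 49.3 in IMR-32 replicate 1. Its sequence around the summit of DMSO replicate 3, chr4:174443877-174443977, held a CACGCG.
HAND2 downstream site: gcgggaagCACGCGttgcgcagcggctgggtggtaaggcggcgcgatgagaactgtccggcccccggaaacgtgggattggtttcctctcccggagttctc

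The other HAND2 region, chr4:174437902-174438541, ranged from 2.5 to 71.3 among the DMSO libraries and was at 20.1 and 44.2 in compound replicates 1 and 3. At GATA3, a broad intronic region of 1970 bp, chr10:8092731-8094700, stood at 50.8, 35.5 and 47.6 in DMSO and at 23.1 and 18.0 in compound replicates 1 and 3. Summits within it lay at 8093882, 8093632 and 8094009 in DMSO replicates 1 to 3. Those of compound replicates 1 and 3 were at 8093893 and 8094501. The compound replicate 3 peak is the one given above at 1066 bp from a GATA3 TSS, so the values compared are from partly different positions. The summit taken for the region was 378 bp from the TSS of a non-coding gene. It is therefore the distal region that was not clear of the TSSs of coding and long non-coding genes. Near LMO1, a region at chr11:8227749-8228270 was listed in 4 lists, at 69.9 in DMSO replicate 1, 34.0 and 63.9 in compound replicates 1 and 3, and 20.6 in IMR-32 replicate 1, which falls outside the rule for named regions and was picked after its values were seen.

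Short motifs in the 100 bp on each side of the summit were searched on both strands of the DMSO N-MYC regions. CACGTG was found in 2 of 6 promoter regions of the 8 genes, against 27.0% of 7266 N-MYC promoter regions, and in 2 of 8 distal regions, against 35.2% of 3723. CACGCG was found in 2 of 6 promoter and 4 of 8 distal regions, against 28.0% and 13.9%. CATGTG was in 1 of 6 and 2 of 8, against 9.70% and 34.5%. CAGATG, an E-box of the kind HAND2 can bind, was in 0 of 6 and 1 of 8, against 6.98% and 28.0%. GATAA, the core of GATA factor motifs, was in 0 of 6 and 0 of 8, against 5.68% and 15.8%. None of these motifs contains another, though neighbouring matches can share bases, and no test was run on the counts. GC content was a median of 68.3% in the promoter regions of the 8 genes and 66.9% in all N-MYC promoter regions, and 61% and 55.1% in the distal ones.

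The compound comparison asked whether N-MYC or WDR5 binding at these genes changed within 4 h. With compound, 2 of 8 genes (GATA2 and GATA3) had an N-MYC promoter peak in at least 2 libraries, against 30.7% of all genes, and no gene did so for WDR5. Compound replicate 2 listed none of the 8 promoters, and it listed 11.3% of all genes, against 35.6% and 38.2% in replicates 1 and 3. HAND2 was listed in compound replicate 3 at 69.8, LMO1 in replicate 1 at 21.7 and ISL1 in replicate 1 at 23.7. HAND2 thus had its highest value of all libraries in a compound library, while it was listed in 3 DMSO libraries and 1 compound library.

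GATA3 could be compared on its percentiles. Its strongest promoter peak was at 51.5 in compound replicate 1 and 80.9 in replicate 3, against 63.1 to 88.4 in DMSO, so the groups overlapped. In compound replicate 3 this was the region next to the canonical TSS, which was at 80.9, with the main region at 79.1. The mean was 66.2 ± 20.8 (SD, n = 2) with compound and 77.9 ± 13.2 (n = 3) in DMSO, a difference of −11.7 (SE 14.4, limma moderated test, adjusted p = 0.999). GATA2 differed by −10.5 (SE 19.1, adjusted p = 0.999, limma), from 27 ± 26.6 (n = 2) to 16.6 ± 18.5 (n = 2), and its peak in compound replicate 1 (3.5) was at another TSS than the others. Neither gene was free of overlap between the groups, and 12.1% of all genes tested were. Of all 5914 genes tested, 0% passed the adjusted threshold of 0.05, and 153 had an unadjusted p under it. These fits took no account of replicate numbers. Blocked by replicate number, they gave −9.53 (SE 17.2, limma adjusted p = 0.884) at GATA3 and −10.5 (SE 9.47, limma adjusted p = 0.783) at GATA2.

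Of 9 regions near the 8 genes that could be tested, 1 had no overlap between DMSO and compound, the broad GATA3 intronic region, with 44.6 in DMSO (n = 3) and 20.6 with compound (n = 2), a difference of −24.1 (SE 10.6, limma adjusted p = 1). The exact permutation test gave a two-sided p of 0.1, the smallest possible with 3 against 2 libraries. It did not use the replicate numbers. With the replicate number as a block, this region differed by −28.6 (SE 9.3, limma unadjusted p = 0.041, adjusted p = 0.8). In that block fit 381 of 7336 regions had an unadjusted p under 0.05 and 0 passed the adjusted threshold. The compound replicate 3 value came from another position in the merged region, as given above. Groups did not overlap in 13.0% of the 7678 N-MYC regions tested, and 0% passed the adjusted threshold (188 had an unadjusted p under 0.05). Among the sites shown above, the TBX2 upstream site differed by −20.2 (SE 17.4), the GATA2 downstream site by −10.7 (SE 15.1) and the wider HAND2 site by 22.0 (SE 16.2), each with a limma adjusted p of 1. In each of these the DMSO and compound values overlapped. With same-numbered libraries paired, the TBX2 site was lower with compound in 3 of 3 pairs and the GATA2 site in 2 of 3. Pairs were not counted over all regions, so these counts have no background beside them and are descriptions only. A fit with the replicate number as a block gave −20.2 (SE 10.3, limma adjusted p = 0.8) at TBX2 and −10.7 (SE 8.86, adjusted p = 0.8) at GATA2. At the wider HAND2 site the block gave 9.1 (SE 9.69, limma adjusted p = 0.824). Leaving out 1 library moved the differences without a block widely. They went from −34.8 without compound replicate 3 to −2.81 without compound replicate 1 at TBX2. At GATA2 they went from −23.7 without DMSO replicate 1 to −2.77 without DMSO replicate 3. At HAND2 they went from 9.1 without DMSO replicate 2 to 32.5 without DMSO replicate 3. Removing a library whose same-numbered partner stayed also left the groups unbalanced in replicates. Of 9 N-MYC regions near the 8 genes that were in all 3 DMSO lists, 0 were missing from every compound list, against 2.06% of 6943 such regions in the genome. Distal N-MYC regions in at least 2 libraries numbered 8 in both groups, and with compound they lay near 5 of the 8 genes, against 45.1% of all genes.

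**Figure D4:**
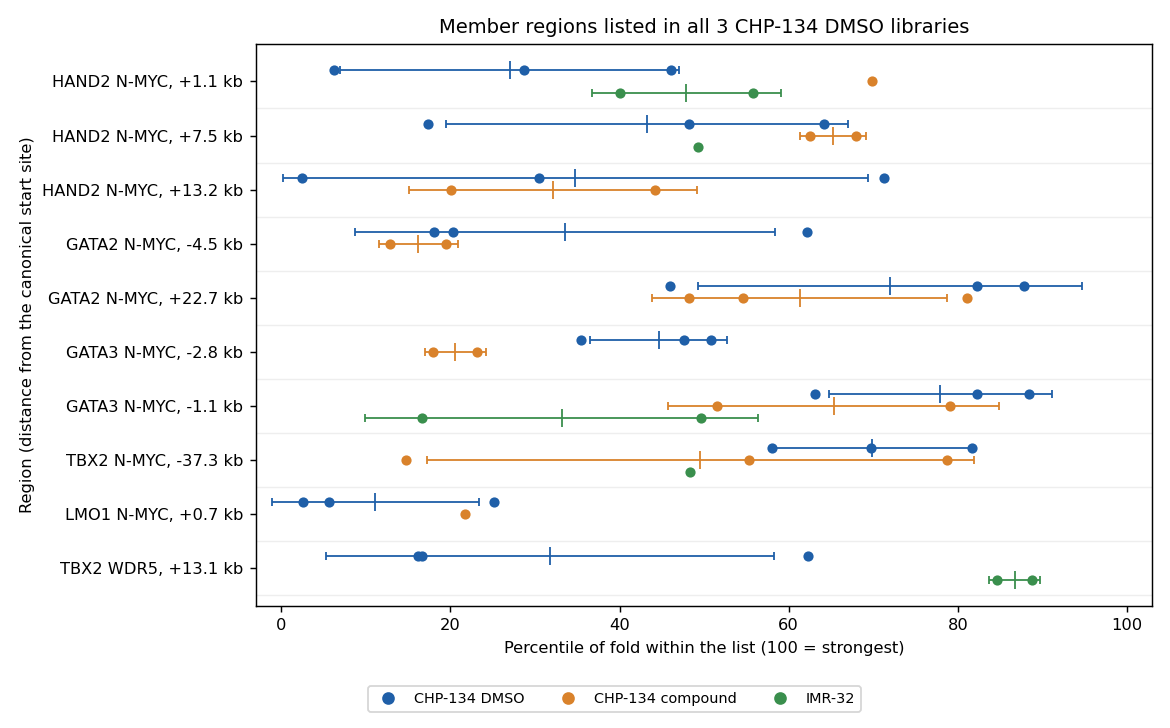
Percentile of fold within the list (horizontal axis, 100 = strongest) for each region near the 8 genes that was in all 3 DMSO lists (rows, named by gene, antibody and distance from the canonical TSS), with a point per library and a tick and line for the mean and SD where 2 or more libraries listed it. The GATA3 intronic region at −2769 bp and the TBX2 WDR5 region are those whose values did not overlap between DMSO and a second group with at least 2 values, along with the main GATA3 promoter peak against IMR-32.

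In IMR-32 cells, 2 of 8 genes (HAND2 and GATA3) had an N-MYC promoter peak in both libraries, against 15.9% of all genes. GATA2 (30.6) and ISL1 (35.2) were listed in replicate 2 and TBX2 (22.7) in replicate 1. The TBX2 peak was 62 bp from a TSS of TBX2-AS1 and 304 bp from one of TBX2. The summit taken for the ISL1 region was 370 bp from a TSS of ISL1-DT and 486 bp from one of ISL1. LMO1 and PHOX2A were in neither list. GATA3 was at 49.6 and 16.7 and HAND2 at 40.0 and 55.8 in replicates 1 and 2, so the values of these genes overlapped in IMR-32.

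GATA3 was lower in IMR-32 than in DMSO-treated CHP-134 cells in both libraries, with no overlap. The means were 33.1 ± 23.3 (SD, n = 2) and 77.9 ± 13.2 (n = 3), a difference of −44.8 (SE 13.8) that did not pass adjustment over 3042 genes (limma, unadjusted p = 0.0258, adjusted p = 0.300). The exact permutation test gave a two-sided p of 0.1, the smallest the design allows, and 32.7% of the genes tested did not overlap between the lines. HAND2 was at 47.9 ± 11.2 in IMR-32 and 27 ± 20 in CHP-134 cells, a difference of 20.9 (SE 14.0, limma adjusted p = 0.597), and its values overlapped. No gene passed the adjusted threshold (0%), while 416 had an unadjusted p under 0.05. By region, 33.1% of 3466 N-MYC regions did not overlap and 0% passed, with 480 at an unadjusted p under 0.05.

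Of the 9 N-MYC regions in all 3 DMSO lists, 2 (the GATA3 and HAND2 promoter regions) were in both IMR-32 lists, against 44.3% of 6943 such regions, a difference that was not tested. In IMR-32, distal N-MYC regions in at least 2 libraries were near 1 of the 8 genes, against 28.4% of all genes. Both distal N-MYC regions in at least 2 IMR-32 libraries were near TBX2, in a TBX2 intron (chr17:59480450-59480845, at 17.9 and 6.3) and past the gene's end (chr17:59488613-59489012, at 7.7 and 5.7). The second was 82 bp from a TSS of TBX2-AS1, and both were picked after their values were seen.

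WDR5 was listed in 2 or more libraries of a group at 1 region near the 8 genes, which is outside the rule for named regions and was picked after its values were seen. It lay 3473 bp past the end of TBX2, at chr17:59489867-59490908 in an exon of the non-coding gene LINC02875, 1188 bp from that gene's nearest TSS, with a GC content of 72.3%. The 101 bases around its summit in IMR-32 replicate 1 held none of the 3 motifs printed above. The summits of DMSO replicates 1 to 3, at 59490211, 59490202 and 59490176, lay outside these bases.
TBX2 WDR5 site, chr17:59490250-59490350: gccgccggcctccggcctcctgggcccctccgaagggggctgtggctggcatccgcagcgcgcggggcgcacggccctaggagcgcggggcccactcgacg

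Its WDR5 percentiles were 62.3, 16.7 and 16.2 in DMSO replicates 1 to 3, and 88.8 and 84.6 in IMR-32 replicates 1 and 3. No compound library listed it. The folds were 4.69, 3.88 and 3.77 in CHP-134 cells and 23.9 and 22.6 in IMR-32 cells. All IMR-32 values were above all CHP-134 values, as was the case in one direction or the other for 34.4% of the 622 WDR5 regions tested.

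The difference between the lines at this site was 54.9 (SE 17.1, limma, unadjusted p = 0.0314, adjusted p = 0.296), from a mean of 31.7 (n = 3) to 86.7 (n = 2). The exact permutation test gave a two-sided p of 0.2, and 0% of the regions passed the adjusted threshold, with 88 at an unadjusted p under 0.05. On the log2 scale of the fold over the median fold of its list, the difference was 2.06 (limma adjusted p = 3.7e-06), a scale on which 216 of 622 regions were called higher and 18 lower in IMR-32. Without DMSO replicate 1 the percentile difference was 70.2 (adjusted p = 0.0365, limma). Of 776 WDR5 regions in all 3 DMSO lists, 61.6% were in both IMR-32 lists, and 45.4% were in no compound list, as this one was. Compound replicate 1, with 5973 peaks the longest WDR5 list, lacked 379 of the 776. An overlapping N-MYC region (chr17:59489564-59490340) was weak, at 12.5 in DMSO replicate 1, 16.6 and 3.3 in compound replicates 1 and 3, and 8.2 in IMR-32 replicate 1. Other distal WDR5 regions near the 8 genes were in at most 1 library of a group, and not all were low. In compound replicate 1 the highest were at 73.1 near HAND2, 46.1 near LMO1 and 42.4 near GATA3. The HAND2 and GATA3 regions were at 8.9 and 7.8 in DMSO replicate 1, and DMSO did not list that of LMO1.

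GATA3 was the gene with a promoter peak in at least 8 of the 16 lists, which allowed a search for genes with a like pattern. A list without a peak counted as 0. Over the 16 lists, the mean absolute difference in percentile from GATA3 was smallest for FAM193A (3.9), ATP6V1B2 (4.1) and TMEM41B (4.97). These genes had a promoter peak in 6, 7 and 8 lists, against 8 for GATA3. Lists in which neither gene had a peak lowered the mean, and the usual size of this difference among all genes is not given here.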

How the data were processed

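N-MYC and WDR5 ChIP-seq peaks of 16 libraries were analysed. Per the authors, adapters were removed by Cutadapt, Bowtie2 mapped the reads (hg19), and MACS2 called the peaks of every library at q 0.05 (versions and control library not given in the sources used here). The deposited lists give the fold at each summit as a ratio over local background, −log10 p and q, and a score, which is not used further. Fold was ranked within each list (ties averaged). TSSs came from GENCODE 44 on GRCh37, the same build as hg19, and a gene took its strongest peak within 1 kb. Region tests merged peaks sharing at least 1 bp and were added after the data were seen. limma 3.58.1 in R 4.3.3 was fitted to percentiles of all genes (or regions) listed in at least 2 libraries of both groups, with Benjamini-Hochberg adjustment and no block, and a value missing from a list was left missing. The fits were also run on simulated data with planted differences and a shared SD for all genes. The outcome is not given here, so that run does not tell what size of difference could be detected. Depth is not known, so no counting error is given. The 8 genes, the gene lists and the tests were chosen with earlier results of these data known. Named distal regions are up to 3 per gene with the highest mean DMSO N-MYC percentile among those in at least 2 DMSO libraries, and in the comparison lists up to 3 genes with the highest such mean, of which 1 is not reported here. For N-MYC, DMSO and compound libraries with the same replicate number deviated together from their group means (r = 0.59, 0.53 and 0.58 over 2157 genes), so the numbers were taken to pair them. The effect of alternative distances, thresholds, scales and left-out libraries is given at the end. Python 3.11.15 and pyfaidx 0.9.0.4 were used for annotation and sequence.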

Additional observations from a re-analysis of the deposited data

How the results depend on the processing

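The counts of member promoters and regions depend on how listing is defined. The 4 genes with an N-MYC promoter peak in DMSO became 2 with only the canonical TSS or with a −log10 q of at least 5. With compound the 2 genes became 5 with 1 library enough, 0 with every library required, and 1 within 500 bp, with the canonical TSS or with the stricter q, and were 0 to 2 with a library left out (0 without replicate 1 or without replicate 3). In IMR-32 the 2 genes became 5 with 1 library enough, 0 with the canonical TSS and 1 with the stricter q, and 4 without replicate 1 and 3 without replicate 2, where 1 library remains and its peaks alone are counted. WDR5 promoters went from 0 to 3 in DMSO and from 0 to 1 with compound where 1 library was enough. The shares of all genes rose as well where 1 library was enough. For N-MYC they went from 30.7% to 43.5% with compound and from 15.9% to 29.7% in IMR-32. For WDR5 they went from 8.53% to 22.2% in DMSO and from 1.34% to 17.0% with compound. Shares of all genes under the other settings are not given here. Distal N-MYC regions numbered 2 to 8 with a compound library left out (2 without replicate 1 or 3). In IMR-32 the 2 regions became 1 when kept clear of the TSSs of coding and long non-coding genes, and 0 with the stricter q. They became 3 without replicate 1 and 8 without replicate 2, again counting the peaks of the 1 library left. Distal WDR5 regions in DMSO went from 1 to 2 within 100 kb. The 2 member promoters with CACGTG became 1 at the mean of the summits, and 0 to 1 with a DMSO library left out (0 without replicate 1). The narrower HAND2 downstream region turned from −2.62 to 0.041 on the log2 scale and 15.7 with a replicate block, and ranged from −18.8 to 15.7 with a library left out (15.7 without DMSO replicate 2). The TBX2 WDR5 site passed the threshold on the log2 scale (2.06) and without DMSO replicate 1 (70.2), so member WDR5 regions called between the lines went from 0 to 1 under each. With the replicate block in the paired N-MYC fits no call changed (0 of the 2 members that could be tested, GATA2 and GATA3, with and without it). Between the lines the numbers were only shared names (correlations of 0.05 and 0.03 for N-MYC, 0.12 and −0.01 for WDR5), and the block gave −52.2 at GATA3 (limma adjusted p = 0.490). GATA3 in IMR-32 ranged from −61.3 to −28.3 with a library left out, and stayed at −32.6 among genes listed in every library. Over all genes, 0 N-MYC calls between the lines became 3 lower on the log2 scale, and 13 higher and 254 lower with percentile 0 where a gene was not listed, none a member. Over all N-MYC regions, 0 became 6 lower on the log2 scale, and over all WDR5 regions 0 became 216 higher and 18 lower, and 7 higher without DMSO replicate 1. No value among genes listed in every library was had for N-MYC with compound, where no member was in all lists, and WDR5 with compound was not run on 17 genes. The cause of these changes was not tested.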
